A study of Mus musculus with 2 samples.

Results

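The genes described here encode the subunits of the transcription factor NF-κB (Nfkb1, Nfkb2, Rela, Relb and Rel) and proteins that hold it back (Nfkbia, Nfkbib, Nfkbie, Nfkbiz and Tnfaip3). They were chosen by name, and their probes by the RefSeq accession that the array files give for each spot. All 10 genes had a probe, out of 20654 genes named in this way, and together they had 14 probes on 15 spots. The study hybridised RNA of cells cultured to osteoclasts to 1-colour Agilent mouse arrays, 1 array for Dnmt3a knockout cells and 1 for wild type cells. Both came from female C57BL/6 mice. In both groups, bone marrow cells that did not adhere were first kept in M-CSF for 2 days, and the adherent monocyte and macrophage precursors were then given RANKL with M-CSF. The allele, the cells in which Dnmt3a was lost, and the age and number of mice were not stated in the labels, and the cells share a culture protocol rather than being sorted osteoclasts.

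NF-κB proteins bind DNA as pairs of subunits. In resting cells IκB proteins keep these pairs in the cytoplasm, until a receptor activates the IκB kinases, IκB is marked for degradation by the proteasome, and the freed pair enters the nucleus. A slower route cuts the Nfkb2 product to a form that pairs with Relb. In osteoclast precursors RANK, the receptor of RANKL, feeds both routes, and mice that lack both Nfkb1 and Nfkb2 form no osteoclasts. Nfkbia and Tnfaip3 are themselves targets of NF-κB and act as negative feedback.

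Of the 59305 spots that were not controls, 59.7% were well above background in knockout and 52.7% in wild type. The signal of Dnmt3a, which encodes a de novo DNA methyltransferase, was 1822 on the knockout array and 7042 on the wild type array, a log2 difference of -1.92 (SE 0.20). Whether its probe lies in the deleted part of the gene is not known. The labelled cell type was set against markers of osteoclasts. Acp5, the tartrate-resistant acid phosphatase, had a signal of 442434 in knockout and 451856 in wild type. Ctsk, the protease that degrades bone collagen, had 356772 in knockout and 413300 in wild type. Both come from a list of 12 osteoclast markers with a median log2 difference of -0.57, ranging from -0.00 (Acp5) to -0.89 (Car2). Of the 12, 9 were at least 0.32 lower in knockout, beside 13.8% of all genes measured on both arrays. Neither genotype has a second array, so there is no test and no p-value, and the number of arrays limits the precision of every value. Each difference is the log2 signal of knockout minus wild type after each array was divided by its 75th percentile. The SE beside it is the error that the scanner software gives for both spots, which covers the reading of a spot and not the spread between cultures or mice.

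Most NF-κB genes differed little between the arrays. Of the 10 genes, 9 were well above background on both. Of these 9, 7 (77.8%) differed by less than the scanner error of their spots, beside 55.0% of all measured genes, which does not show that they were equal. The exceptions were the feedback inhibitors Tnfaip3 (-0.47) and Nfkbia (-0.28). The scanner error was 0.20 at the median of all measured genes and 0.20 to 0.22 for the 9, so this count is close to a fixed cut. The SD of the difference between repeated spots was smaller, 0.07 at the median of 259 probes with 8 or more spots. Rel was above background in wild type only. The median difference over the 9 genes was -0.08, beside 0.01 over all 13479 genes measured on both arrays. In total 5 of the 9 lay below 0, where 48.1% of all measured genes did. A difference of at least 0.32 on the log2 scale, or 25% above the dimmer array, was taken as a threshold of size. Only Tnfaip3 passed it downward, 1 of 9 genes against a background of 13.8%. None passed it upward (0 of 9), against 15.8% of all measured genes. No member measured on both arrays was past 2-fold, a distance reached downward by 0.727% and upward by 0.824% of all measured genes. With 9 genes these counts lie near the background and are not a result about the NF-κB genes.

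**Figure D1:**
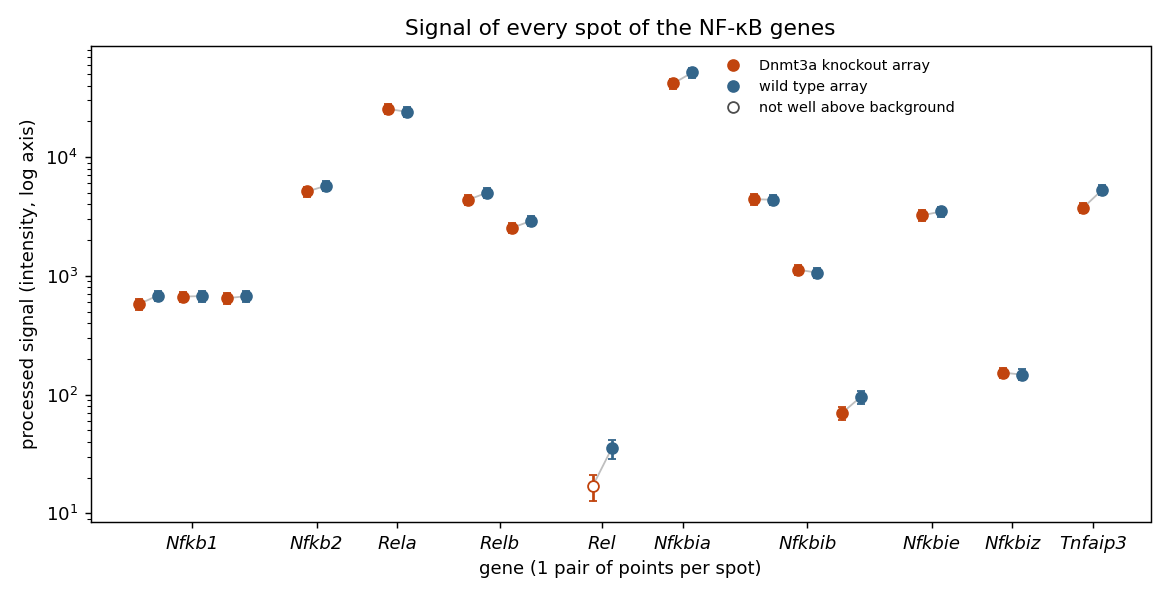
Processed signal of each spot of the 10 genes (vertical log axis, intensity units) on the knockout array (left point of a pair) and the wild type array (right point); bars are the scanner software's error, and an open point was not well above background. The pair of Rel (17.0 in knockout, 35.2 in wild type) slopes most, followed by those of Tnfaip3 and the dimmest Nfkbib probe, and the brightest Nfkb1 and Nfkbib probes lie almost level.

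Signs depend on how the arrays are scaled. Scaling to 8 spike-in probes, RNAs added in known amounts, subtracts 0.53 from every difference and puts the median of all measured genes at -0.52. The shift ranged from 0.30 to 0.73 over the single spike-in probes. With it, all 9 genes lay below 0 and past 0.32, with a median of -0.61. Of all 13479 measured genes, 12502 lay below 0 and 75.8% were at least 0.32 lower in that scaling. Scaling to the array median, where many spots sit at background, subtracts 0.20 and also puts all 9 below 0. It does so for 10003 of the 13479 measured genes. Which scaling is right was not tested, and the main values here are set against the bulk of the genes. The order among the 9 genes is the same under these scalings, which subtract 1 value from all.

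Among the DNA-binding subunits, Rela encodes p65, the main activating subunit of the fast route. Its signal was 25442 on the knockout array and 24085 on the wild type array, a difference of 0.11 (SE 0.20). Nfkb1 encodes the precursor of p50, the usual partner of p65. It was read by 2 probes on 3 spots. The brightest probe gave 669 on the knockout array and 676 on the wild type array, a difference of 0.02. The other probe has 2 spots, with signals of 578 and 648 on the knockout array and 682 and 673 on the wild type array. Those spots differed by -0.21 and -0.03, a gap of 0.18 between spots that carry the same probe, and the median gap over the 24 probes with 2 usable spots was 0.06. The gap between these spots of Nfkb1 thus exceeds the difference of 7 of the 9 genes. With the mean of its probes the difference of Nfkb1 was -0.05, so its sign depends on the probe.

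Both genes of the slow route lay slightly below 0. Nfkb2, the precursor of p52, had a signal of 5132 in knockout and 5744 in wild type, a difference of -0.13. Relb, the partner of p52, had 4370 in knockout and 5026 in wild type on its brighter probe, a difference of -0.17. Its other probe gave 2541 in knockout and 2905 in wild type, a difference of -0.16. The probes of Relb lie at different places on the array and agree to 0.01, where the median gap between probes was 0.13 over 2840 genes with 2 measured probes. All 3 values remain within the scanner error of 0.20. Of all measured genes, 25.2% lay as low as Relb or lower and 29.8% as low as Nfkb2.

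Rel encodes c-Rel, an activating subunit best known in lymphocytes and also made by macrophages. Its single spot had a signal of 17.0 on the knockout array, not well above background, and 35.2 on the wild type array, well above it. The median pixel of the spot was 51 against a local background of 36 in knockout, and 80 against 40 in wild type. On the knockout array the dimmest probe that still counted as well above background had a signal of 17.7. Set against it after scaling, the wild type signal gives Rel a bound of 1.95-fold lower in knockout (-0.96). This bound takes no account of the scanner error of the wild type spot (6.46), so it is not a firm minimum. The signals themselves differ by -1.02 with an SE of 0.44, the largest error among the 14 probes, and after a background correction by normexp, which adds an offset to every spot, by -0.46. Of the 20654 named genes, 0.862% were above background in wild type only and 5.48% in knockout only, and Rel belongs to the smaller class. Within that class of 178 genes, 140 (78.7%) had a bound as low as that of Rel or lower. The signal is near background on both arrays.

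**Figure D2:**
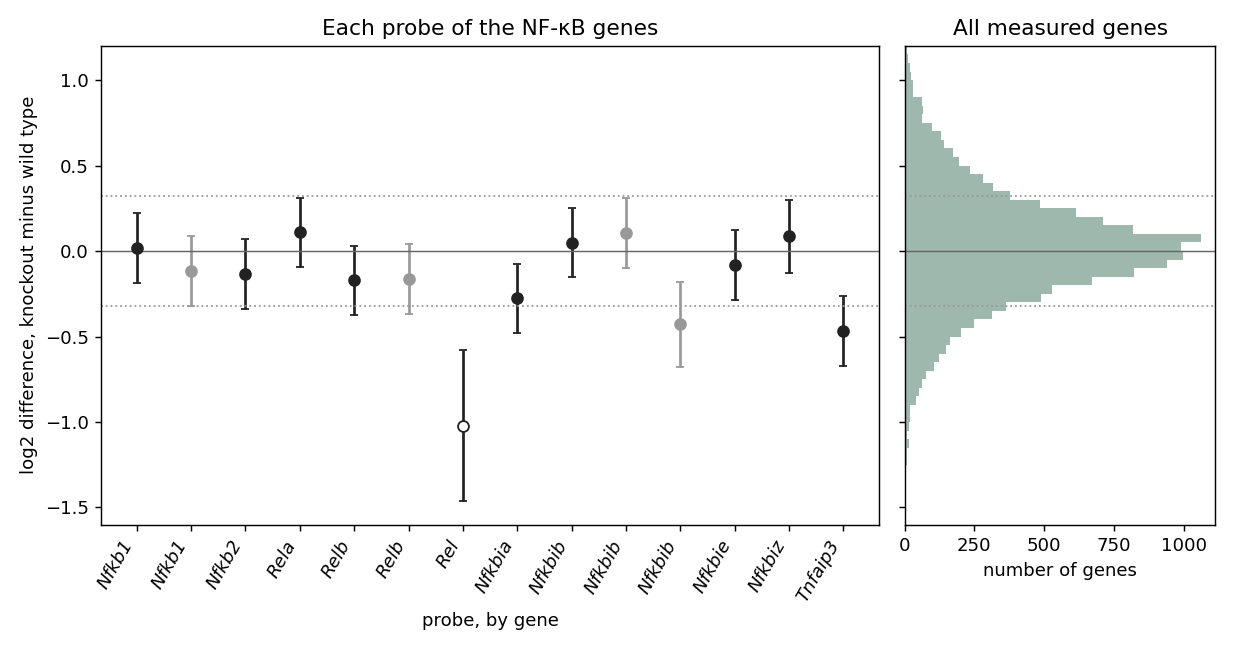
Left, log2 difference of knockout minus wild type for each of the 14 probes, with the scanner error as bars; black points stand for their gene, grey points are further probes, and the open point is Rel, not well above background in knockout. Right, the same axis for the 13479 genes measured on both arrays, as a histogram (the few genes beyond the axis are not drawn); dotted lines mark a log2 difference of 0.32 either way. Tnfaip3 (-0.47) is the only black point of a gene measured on both arrays outside the dotted lines, and scaling to spike-in probes would move every point down by 0.53.

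The inhibitors differed among themselves. Nfkbia encodes IκBα, the inhibitor that is degraded and made again within a cycle of activation. Its signal was 41670 on the knockout array and 51553 on the wild type array, a difference of -0.28 (SE 0.20), or 1.21-fold lower. Of all measured genes, 16.5% lay as low or lower. Nfkbia falls short of the threshold in this setting and just reaches it after quantile normalization (-0.32), and it passes it with median scaling (-0.47) and spike-in scaling (-0.81).

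Tnfaip3 encodes A20, an enzyme that edits ubiquitin chains and shuts off signalling to the IκB kinases. Its signal was 3756 on the knockout array and 5310 on the wild type array, a difference of -0.47 (SE 0.20), or 1.38-fold lower. It is the lowest of the 9 genes measured on both arrays, and 7.55% of all measured genes lay as low or lower. It rests on 1 probe with 1 spot, and the SD between repeated spots was 0.07 at the median of 259 probes with 8 or more of them. The value kept its side of the threshold under all 8 alternatives, but not all of them could have changed that. It was -0.50 after quantile normalization, -0.47 under normexp and -0.51 with block-wise centring. Median scaling (-0.67) and spike-in scaling (-1.0) subtract 1 value from every gene and could only lower it. The value table, the mean of all probes and no filter on dim probes leave a gene with 1 measured probe as it was.

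The other inhibitors were close to even. Nfkbib encodes IκBβ, which is degraded more slowly than IκBα. On its brightest probe it had a signal of 4429 in knockout and 4370 in wild type, a difference of 0.05. A further probe gave 1126 in knockout and 1067 in wild type, a difference of 0.11. The third and dimmest gave 69.5 in knockout and 95.6 in wild type, a difference of -0.43 with an SE of 0.25. Its probes thus disagree by 0.54, a range that 13.6% of the 462 genes with 3 measured probes reached, and the mean over its probes was -0.09. Which transcripts each probe reads was not analysed here.

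Nfkbie encodes IκBε, a further cytoplasmic inhibitor. Its signal was 3231 in knockout and 3485 in wild type, a difference of -0.08. Nfkbiz encodes IκBζ, which acts in the nucleus as a partner of p50 and can also help to switch genes on. Its signal was 153 in knockout and 147 in wild type, a difference of 0.09 (SE 0.22). Both lay well inside the bulk of the genes, since 76.5% of all measured genes were at least as far from 0 as Nfkbie and 74.5% as far as Nfkbiz.

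The promoters of these genes bear on the feedback loop, in which NF-κB binds κB motifs of its own inhibitors. RefSeq windows (GRCm38.p6) were at hand for 7 of the 10 genes, and the 250 bases before each start were searched on both strands for the κB consensus of NF-κB. A match was found in at least 1 window of 5 of the 7 (Nfkbia, Tnfaip3, Nfkb2, Nfkbie and Rel) and in none for Rela and Nfkbib. Over all 27025 genes with a window, 4.46% had a match. The lines below show the windows of the 2 lowest genes measured on both arrays and, for contrast, of Rela, on the strand of the gene and with matches in capitals. They lie at chr12:55492648-55492897 (minus strand) for Nfkbia, chr10:19015411-19015660 (minus strand) for Tnfaip3 and chr19:5637291-5637540 (plus strand) for Rela.
Nfkbia: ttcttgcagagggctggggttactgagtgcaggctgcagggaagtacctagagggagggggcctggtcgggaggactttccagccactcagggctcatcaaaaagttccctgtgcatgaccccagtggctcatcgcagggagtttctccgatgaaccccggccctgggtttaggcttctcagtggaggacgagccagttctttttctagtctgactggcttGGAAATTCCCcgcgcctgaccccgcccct
Tnfaip3: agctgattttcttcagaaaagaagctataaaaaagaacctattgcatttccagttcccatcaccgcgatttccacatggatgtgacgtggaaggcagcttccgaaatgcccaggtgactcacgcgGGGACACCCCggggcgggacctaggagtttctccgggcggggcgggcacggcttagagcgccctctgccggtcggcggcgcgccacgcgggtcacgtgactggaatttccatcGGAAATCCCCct
Rela: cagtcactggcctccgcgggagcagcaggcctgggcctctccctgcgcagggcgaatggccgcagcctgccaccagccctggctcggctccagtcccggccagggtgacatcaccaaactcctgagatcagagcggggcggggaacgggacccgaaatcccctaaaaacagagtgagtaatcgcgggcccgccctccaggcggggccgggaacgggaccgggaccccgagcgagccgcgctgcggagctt

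In Nfkbia the match begins 29 bases before the start and reads GGGAATTTCC on the strand opposite to the gene. In Tnfaip3 one match, GGGGATTTCC on the opposite strand, ends 3 bases before the start and the other, GGGACACCCC on the strand of the gene, lies farther up, from 125 to 116 bases before it. A second start window of Tnfaip3 had none. The Nfkbie match reads GGGGGATTCC, and that of Rel is 1 stretch in which overlapping forms such as GGGAAATCCC match on both strands. Nfkb2 has 3 start windows with matches in each, among them GGGACTTTCC in the window at chr19:46305680-46305929 (plus strand). The windows also held between 6 and 37 CpG dinucleotides, the sites that DNA methyltransferases act on, beside a median of 6 over all windows. Rel had the most, a count that 2.20% of all windows reached. DNA methylation was not measured on these arrays.

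Set beside the array values, the 4 genes with a match and a signal on both arrays had differences of -0.47 (Tnfaip3), -0.28 (Nfkbia), -0.13 (Nfkb2) and -0.08 (Nfkbie), and the 2 without had 0.11 (Rela) and 0.05 (Nfkbib). Nfkb1 (0.02), Relb (-0.17) and Nfkbiz (0.09) had no window and could not be placed in either group. Scaling to spike-in probes or to the array median puts Rela and Nfkbib below 0 as well. This reading was chosen after the values were seen. Among all measured genes with a window, the median difference was 0.02 over 589 genes with a match and 0.01 over 10208 without. A match is a string of letters and shows no binding.

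**Figure D3:**
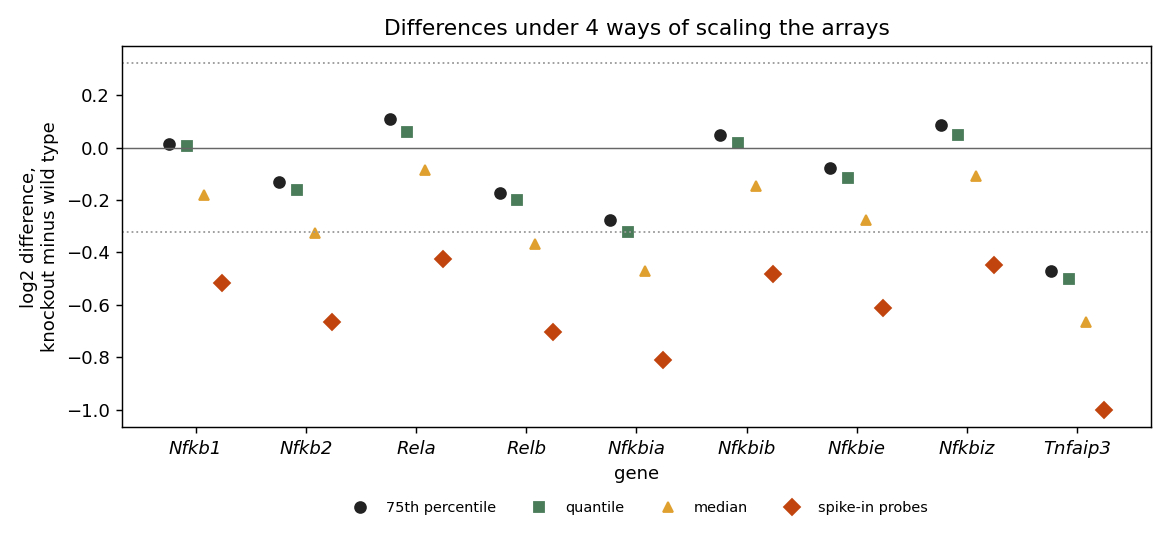
Log2 difference of knockout minus wild type of the 9 genes measured on both arrays under 4 scalings, 1 marker shape for each; dotted lines mark a log2 difference of 0.32 either way. Tnfaip3 is lowest and Rela highest in each scaling, and the signs of Nfkb1, Rela, Nfkbib and Nfkbiz turn negative with median and spike-in scaling.

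The rest of the pathway was read from lists of 85 other genes grouped by role, of which 82 were measured on both arrays. Of these, 12 (14.6%) were at least 0.32 lower and 18 (22.0%) at least 0.32 higher, an upward share of 60% against 53.3% over all measured genes. This share was 26.7% with scaling to the median, where it was 20.4% over all genes, and 1.96% with spike-in scaling, where it was 2.24%. The median over the 82 genes was 0.09, and -0.44 with spike-in scaling. The list medians given below for receptors, the IκB kinase complex, ubiquitin enzymes and target genes are above 0 in the main scaling and after quantile normalization, and all 4 turn negative with spike-in scaling, as do the kinase complex (-0.05) and the ubiquitin enzymes (-0.08) with median scaling.

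The widest differences sat at the cell surface. Tnfrsf11a, which encodes RANK, had a signal of 4846 on the knockout array and 11355 on the wild type array, a difference of -1.20 (SE 0.20). Il1r1, the receptor of interleukin-1, had 29.5 in knockout and 79.8 in wild type, a difference of -1.41 (SE 0.32) near background. They were the only 2 of the 82 genes past 2-fold. The other 8 receptors lay above 0, from Tnfrsf13c, the BAFF receptor of B cells (0.11), to Tlr4, the sensor of lipopolysaccharide (0.39), the co-stimulatory receptor Cd40 (0.60) and the sensor of bacterial lipoproteins Tlr2 (0.75). The median of the 10 receptors was 0.30, with 4 at least 0.32 higher and 2 at least 0.32 lower, beside 15.8% and 13.8% of all measured genes. With median scaling 2 were higher and 2 lower, and with spike-in scaling 0 were higher and 4 lower. Of all measured genes, 7.77% were higher and 30.3% lower with median scaling, and 1.74% and 75.8% with spike-in scaling.

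Between receptors and kinases the 17 adaptors had a median of -0.04, with 3 at least 0.32 lower and 2 at least 0.32 higher, beside 13.8% and 15.8% of all measured genes. With median scaling 8 were lower and 0 higher (median -0.24), and with spike-in scaling 13 were lower and 0 higher. The shares of all measured genes lower and higher were 30.3% and 7.77% with median scaling. With spike-in scaling they were 75.8% and 1.74%. Traf6, the adaptor through which RANK signals, had a signal of 612 in knockout and 845 in wild type, a difference of -0.44. Traf1, also a known target of NF-κB, was at -0.63 and the ubiquitin ligase Birc2 at -0.40. At the high end were Myd88 (0.47) and Irak4 (0.33), which serve the Toll-like and interleukin-1 receptors, and the kinase Ripk1 (0.28). In the IκB kinase complex the scaffold Ikbkg was at -0.46 (its other probe -0.43), beside the catalytic Ikbkb (0.24) and Chuk (0.05). Map3k14, the kinase of the slow route, was at 0.27, and the median of these 4 genes was 0.15.

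Of the related kinases, Ikbke had a signal of 656 in knockout and 413 in wild type, a difference of 0.70, while Tbk1 was at -0.17. Their scaffolds Tank, Tbkbp1 and Azi2 were at -0.40, -0.08 and -0.00. The ligase that marks IκB for degradation was near even: Btrc was at 0.25 (its other probe -0.33), Skp1 at 0.03, Fbxw11 at 0.03, Cul1 at -0.12 and Rbx1 at -0.16. None of its 5 genes passed 0.32 either way on the probe that stands for it. Of all measured genes, 13.8% were at least that much lower and 15.8% higher. With median scaling 1 of the 5 was lower, beside 30.3% of all measured genes. With spike-in scaling 4 were, beside 75.8%. Among the 11 ubiquitin ligases and editors, the Tnfaip3-binding protein Tnip3 was highest (0.65, its other probe 0.66), followed by Otulin (0.40) and Rbck1 (0.27). Tnip1 (-0.18), Tnip2 (-0.12) and Rnf11 (-0.11) were lowest and inside their scanner error, and the median was 0.12.

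The remaining IκB-like genes included Nfkbid, a nuclear IκB protein, with a signal of 5695 in knockout and 8547 in wild type, a difference of -0.56. Nkiras1, a small GTPase-like protein that binds IκB, was at -0.45 and its relative Nkiras2 at 0.16. Bcl3, a nuclear partner of p50 and p52, was at -0.09, and Nfkbil1 (0.30) and Commd1 (0.16) were above 0. Of these 6 genes, 2 were at least 0.32 lower and 0 at least 0.32 higher, beside 13.8% and 15.8% of all measured genes.

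Textbook targets of NF-κB had a median of 0.20 over 24 measured genes, 9 of them at least 0.32 higher and 3 at least 0.32 lower, where 15.8% of all measured genes were higher and 13.8% lower. This balance turns with the scaling: 4 were higher and 5 lower with median scaling (median 0.00), and 1 was higher and 12 lower with spike-in scaling. Over all measured genes, 7.77% were higher and 30.3% lower with median scaling, and 1.74% and 75.8% with spike-in scaling. Among the targets, Il1b (0.88), Ccl3 (0.59) and the immediate early gene Ier3 (0.58) were highest. The lowest were the gelatinase Mmp9 (-0.58), the osteoclast transcription factor Nfatc1 (-0.55, its other probe -0.23) and the interleukin-1 receptor antagonist Il1rn (-0.42). Il6 and Cxcl2 were not well above background on either array, and Cxcl1 was so in knockout only, with no bound above 1-fold. In the main scaling, targets therefore lay on both sides, and Tnfaip3 and Nfkbia, targets themselves, lay on the side of Mmp9, Nfatc1 and Il1rn. Mmp9 and Nfatc1 are also among the 12 osteoclast markers described below, so the lists overlap.

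**Figure D4:**
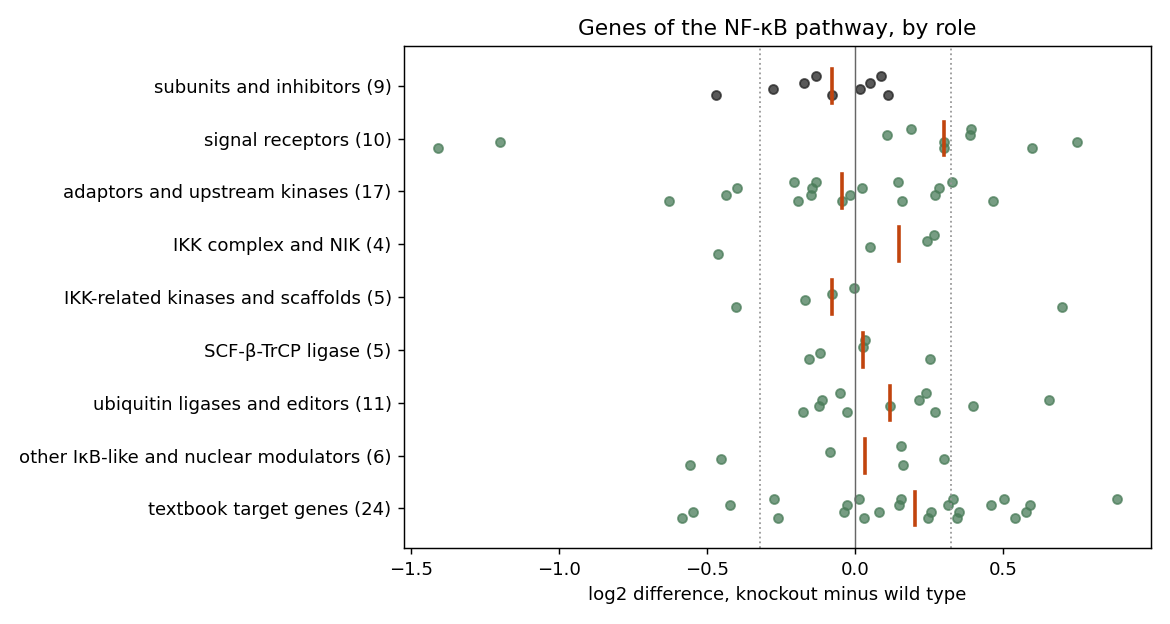
Log2 difference of knockout minus wild type for genes of the NF-κB pathway measured on both arrays, 1 row per role with the number of genes in brackets; red bars are medians and dotted lines mark a log2 difference of 0.32 either way. The 9 subunits and inhibitors lie between -0.47 and 0.11, and Rel is not drawn. Their range is narrower than that of the receptors (-1.41 to 0.75), whose low end is Il1r1 near background. It is wider than that of the SCF-β-TrCP ligase (-0.16 to 0.25). Spike-in scaling would move every point left by 0.53.

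Markers of the cell types that such a culture can hold differed between the arrays too. Of all 13479 measured genes, 6486 lay below 0 in the main scaling and 7150 after quantile normalization. With spike-in scaling 12502 did, and the median of all genes was -0.52. Of 12 osteoclast markers all lay below 0 (11 of 12 after quantile normalization), with a median of -0.57 and a summed signal of 1003420 in knockout and 1178120 in wild type. Of 10 measured macrophage markers (12 fixed) all lay above 0, with a median of 0.69 and a summed signal of 437709 in knockout and 380222 in wild type. With spike-in scaling 6 of the 10 lay above 0, where 977 of all 13479 genes did. All 12 neutrophil markers were above 0 (median 0.47, summed signal 276027 in knockout and 228964 in wild type; median -0.07 with spike-in scaling). Of 11 measured stromal and osteoblast markers (12 fixed) 9 lay below 0 (median -0.72, summed signal 47412 in knockout and 74458 in wild type). Dendritic cell markers (7 of 9 measured) had a median of 0.40, B lymphocyte markers (6 of 8) 0.18 and T and NK lymphocyte markers (3 of 8) 0.37, all negative with spike-in scaling. Cd3d, Cd3g, Cd8a, Xcr1 and Clec9a were not well above background on either array. The summed signals are not scaled and can rest on few genes. Csf1r, at a difference of 0.10, gave 332857 of the macrophage sum in knockout. Acp5 and Ctsk gave 442434 and 356772 of the osteoclast sum in knockout. The part of these cell types in the values of the NF-κB genes was not tested, and a smaller share of a cell type cannot be told apart from less RNA per cell.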

How the data were processed

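RNA of Dnmt3a knockout and wild type osteoclast cultures was measured on 1 array each. Per the file headers, the authors' deposited intensity is the spot signal after background subtraction and spatial detrending by Agilent Feature Extraction 10.10.1.1 (the submitters' processing notes name 9.1), not normalized between arrays. The deposited value table holds the same intensity times 1 factor per array (median 1.54 for knockout and 1.55 for wild type, column medians 66.5 and 59.6), with no centring or ratio, and how the factor was chosen is unknown. Both arrays lay on 1 slide and shared a scan.

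Here log2 signals were scaled to each array's 75th percentile over spots that were not controls, marked spots were left out (no spot of these genes was marked or saturated), and spots of a probe were averaged. Accessions were matched to RefSeq (GRCm38.p6, names only), and the brightest probe stood for its gene. Averaged spots carry the mean of their SE. A gene was measured when most spots of its probe were well above background on both arrays. The log2 difference of 0.32 (25% above the dimmer array) and the fold of 2 are thresholds of size, since 1 array per genotype allows no test. The bound of Rel sets its wild type signal against the dimmest knockout probe counted as well above background, after scaling. Alternatives were quantile, median and spike-in scaling, normexp (limma 3.58.1, offset 50), the value table, the mean of all probes, no filter on dim probes, and centring in 6 by 4 blocks of the array. The files hold no mean pixel signal, so normexp used the median one, a change made after seeing the files. The functions were tested on simulated data. The members and lists were chosen with earlier results of these data known. Named genes are all 10 members and, of each pathway list, the 3 highest and 3 lowest measured genes, or all where a list has 6 or fewer.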

Additional observations from a re-analysis of the deposited data

How the results depend on the processing

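The median difference over the 9 genes measured on both arrays stayed within the scanner error of its main value of -0.08 in 7 of 8 alternatives (-0.27 to -0.05) and was -0.61 with spike-in scaling, which moves all genes by the same amount. The count at least 0.32 lower on the log2 scale, 1 in the main setting, was 2 after quantile normalization (Nfkbia joins Tnfaip3), 4 with median scaling (Nfkb2 and Relb as well), 9 with spike-in scaling and 2 of 10 with no filter on dim probes, which admits Rel. It was 1 under normexp, the value table, the mean of all probes and block-wise centring. No member was at least 0.32 higher in any of the 8. Of all measured genes, 13.8% were at least 0.32 lower in the main setting and 16.3% after quantile normalization. With median scaling 30.3% were, and with spike-in scaling 75.8%. The shares at least 0.32 higher were 15.8%, 13.6%, 7.77% and 1.74% in the same order. Each single difference of the 9 members moved by less than its scanner error in 7 alternatives, and all 9 moved by more with spike-in scaling. Part of this was fixed in advance. Median scaling subtracts 0.195 and spike-in scaling 0.533 from every difference, beside a median scanner error of 0.204 over all measured genes. The value table and no filter on dim probes repeat the main values of the 9 members. Those outcomes say little about how stable the values are. The Rel signals differed by -0.46 under normexp and by -1.56 with spike-in scaling, against -1.02. No paired analysis was possible because each genotype has 1 array. Rel and the dim probe of Nfkbib are limited by their signal over background.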
